A study of Mus musculus with 5 samples.

Results

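The 40 genes described here encode the enzymes and transporters of glycolysis, the kinases that hold back pyruvate oxidation, and the factors and target genes of the response to low oxygen. They were taken as a list of mouse gene names, each represented by its probe with the highest level averaged over the 5 arrays. All 40 were found among the 20016 named genes of the array, with the listed name Ero1l matched to its current symbol Ero1a. Probes of 38 members were above background on all 5 arrays, the Pdk4 probe was above it on 4, and the Car9 probe on none.

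Glycolysis splits glucose into pyruvate and yields ATP without oxygen. Pyruvate is then either reduced to lactate and exported or oxidised in the mitochondria, and pyruvate dehydrogenase kinases inhibit the oxidative route. When oxygen is short, the prolyl hydroxylases encoded by the Egln genes no longer mark the alpha subunits of HIF for destruction, and the stabilised factors bind short elements near many glycolytic and angiogenic genes. Many tumours express these genes at high levels even where oxygen is present.

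The arrays hold total RNA of tumour cell lines that were grown from soft tissue sarcomas of mice carrying doxycycline-inducible EWS/ATF1 alleles, on a mixed C57/BL6, 129 and ICR background. EWS/ATF1 is the fusion protein of clear cell sarcoma, and doxycycline sets its expression in these lines. Each of 5 cultures gave 1 array, a control, a low dose and a high dose at 3 h, and a high dose and its control at 48 h. The doxycycline concentrations, whether the controls received any, and which line gave each array are not stated in the sources used here, and differences between lines may be part of any difference between arrays.

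Levels below are log2 values relative to the 75th percentile of each array's signal, and differences are log2 differences between 2 arrays. A difference of at least 1, which is 2-fold, was called higher or lower if the probe was above background on both arrays. The scanner's error model gave an error of about 0.20 for the difference of a gene with 1 spot, and it covers technical error within an array only. With 1 array a group there are no replicates, no difference between 2 arrays carries a p-value, and the number of arrays limits the precision.

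Each array had 30884 to 33427 of its 55681 probes above background. Fos, which the title of the study names as a gene activated by the fusion, stood at -2.22, -0.49 and 2.18 on the 3 h arrays of control, low and high dose, and at 2.86 on the 48 h high-dose array against -2.22 on the 48 h control array. All 7 mesenchymal markers were above background on every array, while the neural crest markers Erbb3 and Foxd3 were below it on all 5. The 48 h high-dose array stood apart in 4 of the marker lists. Of 18 cell cycle genes, 16 were measured on both 48 h arrays and 15 were higher at the high dose (93.8%, against 9.94% of all genes). The summed linear level of the list was 226 on the 48 h high-dose array and 25.5 to 31.6 on the other 4 arrays. The macrophage list had all 10 of its genes found on the array above background and a sum of 45.4 there, against 6 to 9 genes and sums of 6.91 to 8.22 elsewhere. The endothelial sum was 187 there and 27.5 to 57.7 elsewhere, but Egfl7 alone made up 177 of it, only 3 of the 6 markers were above background there against 4 on each other array, and the defining markers Cdh5 and Tie1 were below background on every array. The mesenchymal sum was 53.2 there and 98.1 to 111 elsewhere. Vim made up most of each of these sums, at a log2 level of 5.70 there and 6.52 to 6.73 elsewhere. At 48 h of the high dose, 5 of the 7 mesenchymal genes were 2-fold lower (71.4%, against 10.1% of all genes). The part of these lists in the results below was not tested, and in bulk RNA fewer cells of a type and less RNA per cell cannot be told apart.

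After 48 h of the high dose the members went different ways. The lactate exporter gene Slc16a3 was 5.72-fold higher than in the 48 h control, while the kinase gene Pdk4 was about 31.0-fold lower or more. A further 8 members, 5 of them hypoxia targets, were 2.03-fold to 5.77-fold lower. Of the 38 members measured on both arrays, 1 was higher (2.63%) and 8 were lower (21.1%). Over all 13739 genes measured there, 9.94% were higher and 10.1% lower at 2-fold, or 20.0% in either direction, and the members' share in either direction was 23.7%. The members were thus called about as often as genes at large, with the calls lying mostly on the lower side. The median difference of the members was -0.24, beside 0.05 over all genes measured. After 3 h, 0 of 39 members were past 2-fold against both control arrays at either dose, where 0.832% of genes were higher and 0.444% lower at the high dose, and 0.436% and 0.207% at the low dose.

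**Figure D1:**
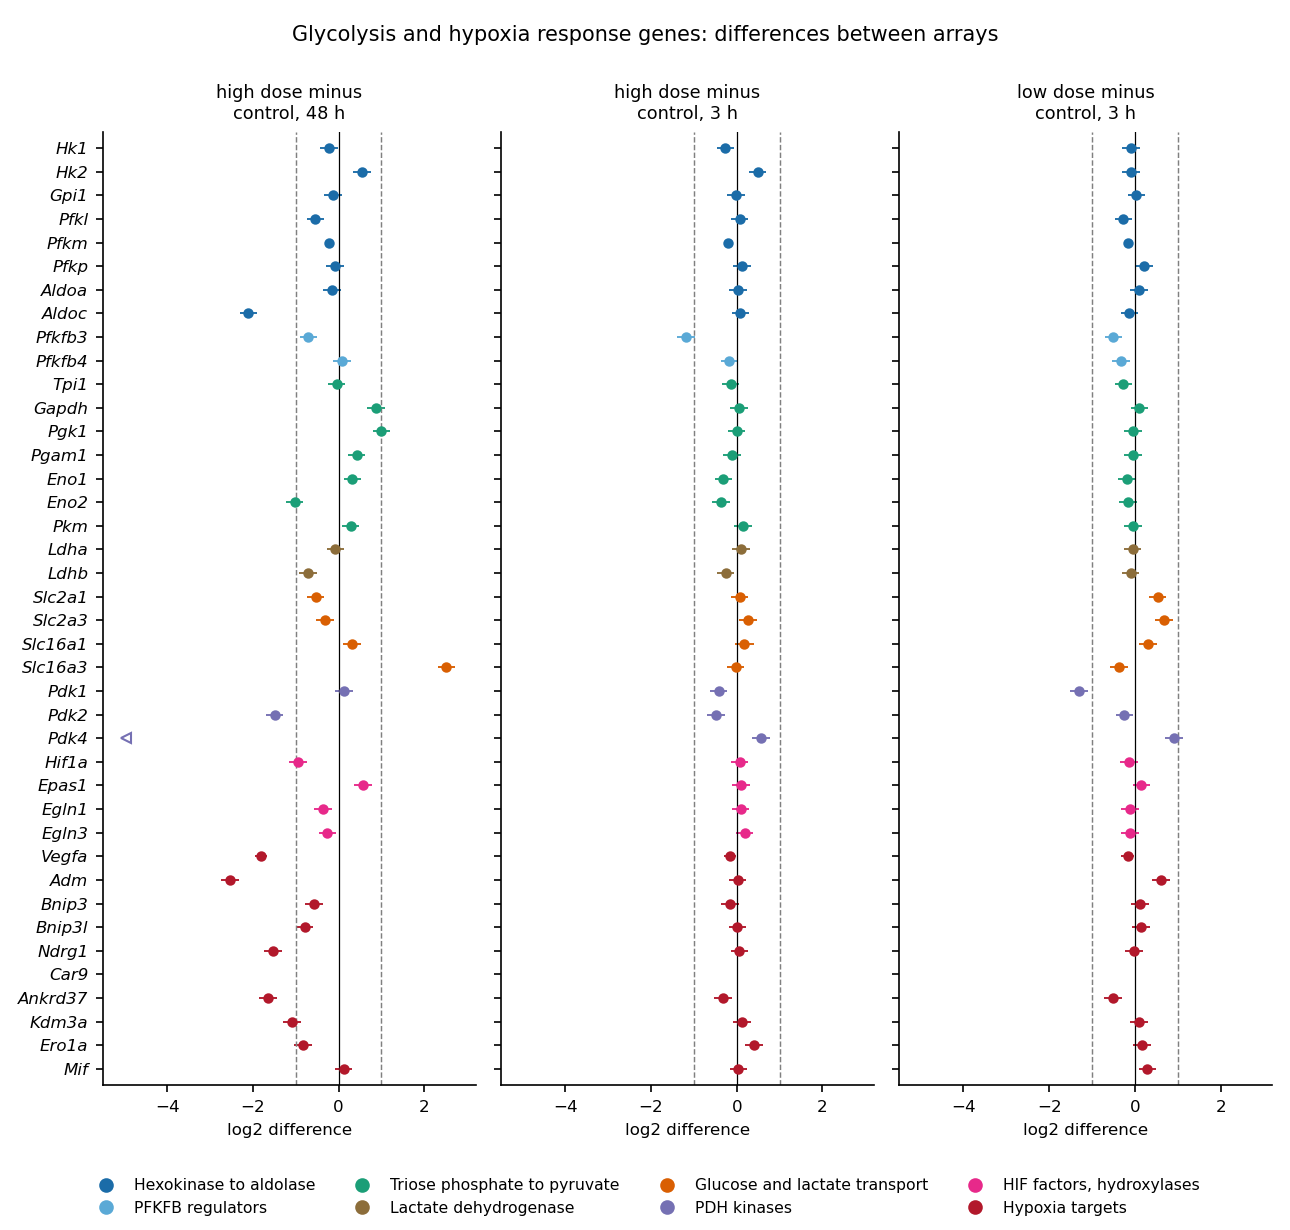
Log2 difference of each of the 40 members (rows, coloured by role) for the high dose minus control at 48 h, the high dose minus control at 3 h and the low dose minus control at 3 h. Horizontal bars are the scanner's error, dashed lines mark 2-fold, the open triangle for Pdk4 is a bound because its probe was below background on the 48 h high-dose array, and Car9 has no point because its probe was below background on every array. Most points lie near 0 in both 3 h panels, and the hypoxia targets lie to the left of 0 at 48 h, except Mif.

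The promoters of the 4 members with the largest differences past 2-fold are shown to place the elements known from this pathway beside the values. Each is the 250 bases before the gene's start, from RefSeq on build GRCm38.p6, in the direction of the gene. They are Pdk4 at chr6:5496279-5496528 on the minus strand, and Adm at chr7:110627407-110627656, Slc16a3 at chr11:120948817-120949066 and Aldoc at chr11:78322823-78323072, all on the plus strand. Aldoc has 2 promoters in the table, and the first listed is shown. Capitals mark every match on either strand to ACGTG or GCGTG, the cores of the HIF-binding hypoxia response element, or to TGACG or TGACGTCA, the short and the full cAMP response element that ATF1 and CREB bind.
Pdk4: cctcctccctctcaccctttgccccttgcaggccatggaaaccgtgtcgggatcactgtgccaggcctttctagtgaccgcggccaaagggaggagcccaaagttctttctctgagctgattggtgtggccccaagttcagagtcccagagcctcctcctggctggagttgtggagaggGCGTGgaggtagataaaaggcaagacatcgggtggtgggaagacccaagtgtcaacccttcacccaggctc
Adm: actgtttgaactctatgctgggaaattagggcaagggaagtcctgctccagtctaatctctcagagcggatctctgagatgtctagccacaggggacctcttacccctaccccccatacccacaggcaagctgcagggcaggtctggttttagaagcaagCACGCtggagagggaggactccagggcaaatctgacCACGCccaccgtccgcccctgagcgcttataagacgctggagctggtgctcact
Slc16a3: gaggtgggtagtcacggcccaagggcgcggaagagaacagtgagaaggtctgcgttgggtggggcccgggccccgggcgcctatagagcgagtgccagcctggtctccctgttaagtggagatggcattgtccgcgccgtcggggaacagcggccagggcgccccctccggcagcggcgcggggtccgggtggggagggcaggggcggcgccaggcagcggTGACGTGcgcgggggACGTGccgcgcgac
Aldoc: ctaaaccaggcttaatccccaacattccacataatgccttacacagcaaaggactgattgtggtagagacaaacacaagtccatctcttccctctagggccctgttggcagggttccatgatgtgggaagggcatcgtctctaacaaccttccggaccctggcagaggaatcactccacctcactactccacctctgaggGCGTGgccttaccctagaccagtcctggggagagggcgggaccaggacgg
The Slc16a3 promoter held 2 ACGTG matches, which start at positions -27 and -14 relative to the gene's start, and the first of them overlaps a TGACG match at -29. The promoters of Pdk4, Adm and Aldoc, whose genes were lower at 48 h, held only GCGTG matches, on the minus strand in Adm, with 1, 2 and 1 of them. A promoter was found for 36 of the 40 members. Of these, 28 held ACGTG or GCGTG (77.8%), against 38.6% of 27025 genes in the table. The members were listed as genes of glycolysis and hypoxia, so this share describes the list. TGACG was found in 7 of 36 (19.4%), against 17.9% of all genes, and the full TGACGTCA in the promoters of Ldha and Mif, against 1.62% of all genes. A match of letters shows neither binding nor a cause.

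In the first steps of glycolysis the differences at 48 h were small, with the exception of an aldolase. Hk2, a hexokinase that traps glucose in the cell, stood at 2.27 on the 48 h high-dose array against 1.73 on the 48 h control array, a difference of 0.54. It stood at 1.19, 1.10 and 1.68 on the 3 h arrays of control, low and high dose, so it was highest on the 48 h high-dose array. Hk1, the other hexokinase, differed by -0.22, the glucose phosphate isomerase gene Gpi1 by -0.14, and the phosphofructokinase genes Pfkl, Pfkm and Pfkp by -0.54, -0.22 and -0.08. Aldoc, the aldolase isoform best known from brain, stood at 1.28 on the 48 h high-dose array against 3.38 on the 48 h control array, which is 4.30-fold lower (difference -2.10, scanner error 0.20). On the 3 h arrays of control, low and high dose it stood at 2.63, 2.50 and 2.71. The 48 h high-dose array was thus the lowest of the 5, and the 48 h control array the highest. Aldoa, the aldolase isoform of muscle and most other cells, differed by -0.15.

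Between triose phosphate and pyruvate, 5 of 7 enzyme genes were above 0 by 0.28 to 0.9997 at 48 h of the high dose, and none was called higher by its brightest probe. Pgk1, which encodes the first ATP-yielding enzyme of the pathway, came closest, at 7.20 on the 48 h high-dose array against 6.20 on the 48 h control array. Its difference of 0.9997 lay just under the threshold of 1, and passed it with arrays centred on their median and with the deposited value table. On the 3 h arrays of control, low and high dose Pgk1 stood at 6.28, 6.24 and 6.28, so 4 arrays were alike and the 48 h high-dose array was above them. Gapdh, the gene of the oxidising step and a common reference gene, stood at 9.64 on the 48 h high-dose array against 8.76 on the 48 h control array. Its other 6 probes gave differences of 0.94 to 1.24, 5 of them past 2-fold, and the mean of its probes passed 2-fold. The mutase gene Pgam1, the enolase gene Eno1 and the pyruvate kinase gene Pkm differed by 0.42, 0.32 and 0.28, and Tpi1 by -0.04. Eno2, the enolase isoform of neurons, was the exception, with 2.70 on the 48 h high-dose array against 3.73 on the 48 h control array (2.03-fold lower), and 3.44, 3.28 and 3.07 on the 3 h arrays of control, low and high dose. Against the 3 h control array its difference was -0.74, short of 2-fold. Several of these abundant enzymes have processed pseudogenes in the mouse, and whether their probes also detect related transcripts was not tested.

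Lactate dehydrogenase, which converts pyruvate and lactate, gave small differences at 48 h. Ldha, whose subunit favours lactate production, differed by -0.08, and its 3 probes by -0.20 to -0.08. Ldhb stood at 5.14 on the 48 h high-dose array against 5.85 on the 48 h control array, a difference of -0.71. Neither passed 2-fold in any comparison with the main processing, but Ldhb was 2-fold lower at 48 h with quantile normalization.

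Among the transporters, the exporter of lactate carried the largest difference. Slc16a3, which encodes the monocarboxylate transporter MCT4, stood at 5.40 on the 48 h high-dose array against 2.89 on the 48 h control array (difference 2.51, scanner error 0.20). It stood at 2.61, 2.24 and 2.59 on the 3 h arrays of control, low and high dose. The other 4 arrays lay between 2.24 and 2.89, and the second Slc16a3 probe gave a difference of 2.29. Slc16a1, which encodes the monocarboxylate transporter MCT1, differed by 0.31. Slc2a1, a glucose transporter gene, stood at 1.88 on the 48 h high-dose array against 2.42 on the 48 h control array, but it was 0.89 above the 3 h control array, so its direction turned with the control. Slc2a3, another glucose transporter gene, stood at -0.43 on the 48 h high-dose array against -0.12 on the 48 h control array.

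The kinases of pyruvate dehydrogenase diverged. Pdk4, a kinase that is induced by fasting and lipid fuel in many tissues, was not well above background on the 48 h high-dose array, where its measured value was -5.38, and stood at -0.32 on the 48 h control array. Taking the weakest probe above background on that array, at -5.28, as its limit, Pdk4 was about 31.0-fold lower or more. The limit is approximate, since a probe can be below background at a higher level, as Myod1 was there at -5.12. On the 3 h arrays of control, low and high dose Pdk4 stood at -1.25, -0.34 and -0.68. It was therefore detected on all arrays except the 48 h high-dose array. Pdk2 stood at 0.03 on the 48 h high-dose array against 1.52 on the 48 h control array (2.82-fold lower), and at 1.59, 1.35 and 1.11 on the 3 h arrays of control, low and high dose. Pdk1, the kinase known as a HIF target, stood at -1.20 on the 48 h high-dose array against -1.32 on the 48 h control array and did not pass 2-fold there.

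**Figure D2:**
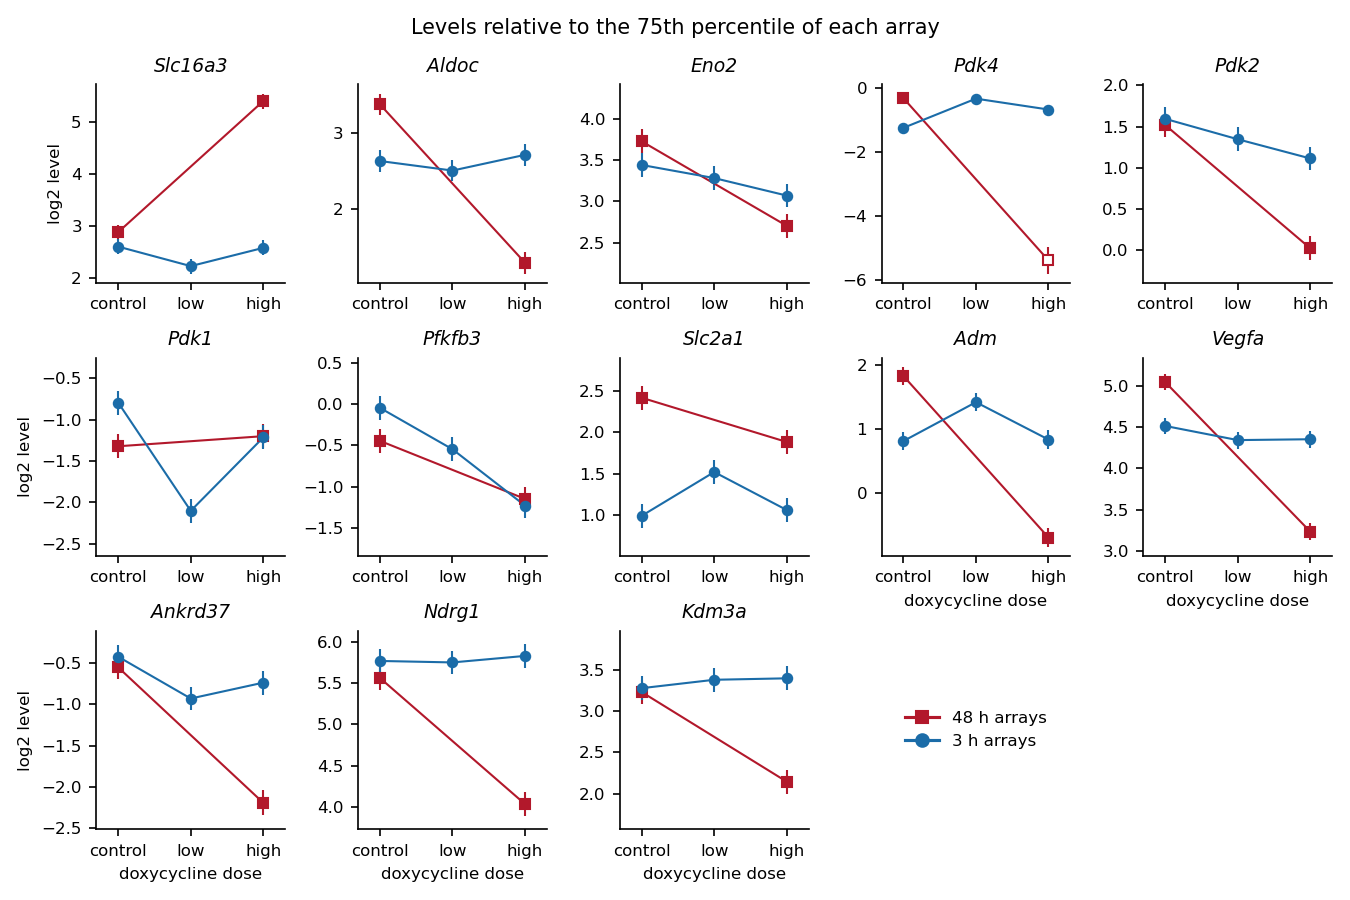
Levels (log2, relative to the array's 75th percentile) of the 13 members past 2-fold in at least 1 comparison, by doxycycline dose, with squares for the 48 h arrays and circles for the 3 h arrays. Bars are the scanner's error, open symbols are below background, each panel has its own axis, and no low dose was measured at 48 h. Slc16a3 stands out upward at 48 h of the high dose, and Aldoc, Pdk4, Pdk2, Adm, Vegfa, Ankrd37, Ndrg1 and Kdm3a downward.

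Of the genes of the factors and hydroxylases, none was called at 2-fold at 48 h. Hif1a, the gene of HIF-1 alpha, stood at 2.22 on the 48 h high-dose array against 3.17 on the 48 h control array. Its difference of -0.95 lay under 2-fold, and passed it with quantile normalization. On the 3 h arrays of control, low and high dose it stood at 2.78, 2.64 and 2.85. HIF-1 alpha is regulated mainly through its protein, which arrays do not measure. The hydroxylase genes Egln1 and Egln3 differed by -0.37 and -0.26. For Epas1, the gene of HIF-2 alpha, the probes disagreed. The brightest probe stood at 3.21 on the 48 h high-dose array against 2.64 on the 48 h control array (difference 0.57), and the second, also above background on all 5 arrays, at -4.02 against -0.57 (difference -3.45). Both carry the same transcript accession, so no direction is given for Epas1.

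The hypoxia targets were the group with the most lower members at 48 h. Of the 9 measured, 5 were at least 2-fold lower (55.6%, against 10.1% of all genes) and none was higher, and their median difference was -1.09. Adm, which encodes the vasodilator peptide adrenomedullin, stood at -0.70 on the 48 h high-dose array against 1.83 on the 48 h control array (5.77-fold lower). On the 3 h arrays of control, low and high dose it stood at 0.81, 1.42 and 0.84, so the 48 h control array was the highest of the 5. Vegfa, the main growth factor of blood vessels, stood at 3.23 on the 48 h high-dose array against 5.05 on the 48 h control array (3.51-fold lower), and at 4.51, 4.34 and 4.35 on the 3 h arrays of control, low and high dose. A second Vegfa probe gave -0.93 in place of -1.81, the same direction but under 2-fold.

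Ankrd37, which encodes an ankyrin repeat protein, stood at -2.19 on the 48 h high-dose array against -0.55 on the 48 h control array (3.12-fold lower), and at -0.42, -0.93 and -0.74 on the 3 h arrays of control, low and high dose. With normexp background correction its 48 h difference was -1.07 in place of -1.64, only just past 2-fold. Ndrg1, a stress-responsive gene, stood at 4.03 on the 48 h high-dose array against 5.56 on the 48 h control array (2.88-fold lower), and at 5.77, 5.75 and 5.83 on the 3 h arrays of control, low and high dose. Kdm3a, a histone demethylase gene, stood at 2.14 on the 48 h high-dose array against 3.23 on the 48 h control array (2.12-fold lower), and at 3.28, 3.38 and 3.40 on the 3 h arrays of control, low and high dose. For Ndrg1 and Kdm3a the other 4 arrays lay close together, and only the 48 h high-dose array stood away from them. Bnip3 and Bnip3l, receptors for the removal of mitochondria, differed by -0.57 and -0.79, and Ero1a, an oxidase of disulphide bond formation, by -0.82. Mif, which encodes a cytokine, differed by 0.12. Car9, a carbonic anhydrase gene widely used as a marker of hypoxia, was not well above background on any array.

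**Figure D3:**
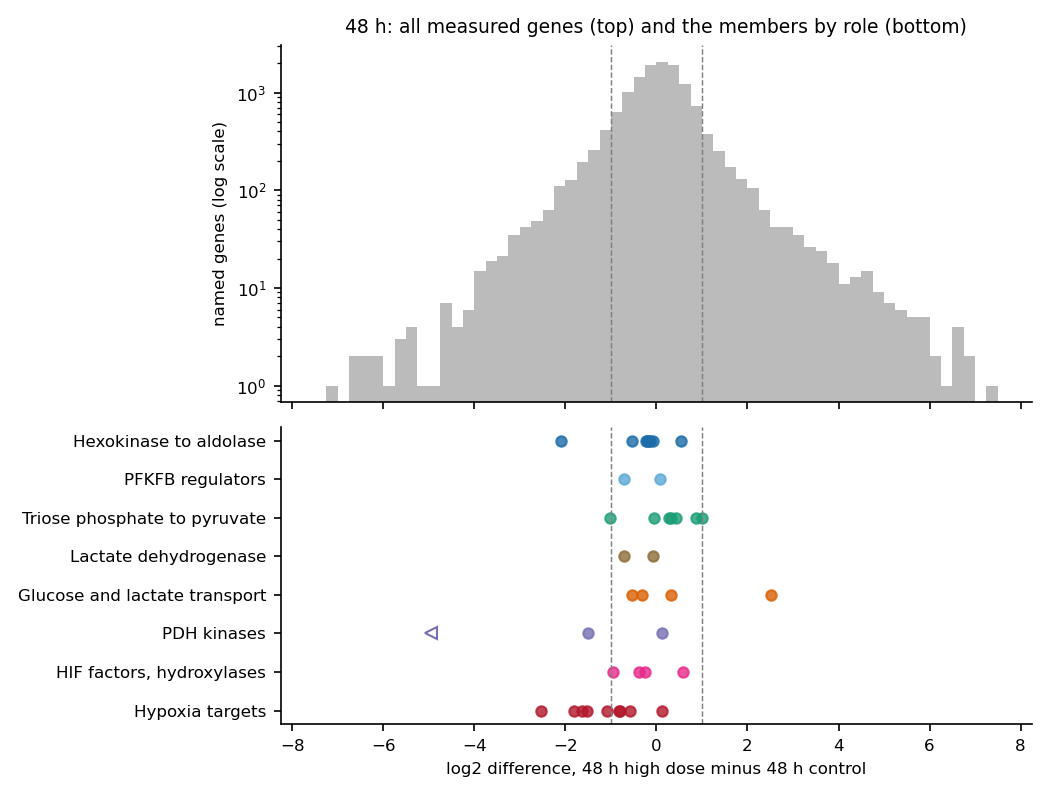
Top, number of named genes (log scale) by log2 difference between the 48 h high-dose and 48 h control arrays, for the 13739 genes above background on both. Bottom, the members on the same axis by role, with dashed lines at 2-fold and an open triangle for the bound of Pdk4. The members lie well inside the range of all genes, and 8 of the 9 measured hypoxia targets lie below 0.

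Of the 9 calls at 48 h, that for Eno2 depended on the choice of control array. Slc16a3 was higher and Aldoc, Pdk2, Vegfa, Adm, Ndrg1, Ankrd37 and Kdm3a were lower at 2-fold against the 3 h control array as well. Of all 13505 genes measured on the 3 arrays, 7.41% were higher and 7.09% lower against both controls. The fold did depend on the control for Adm, whose difference was -1.51 against the 3 h control array, and for Aldoc, at -1.35. Hk2, at 2.27 against 1.19, was past 2-fold against the 3 h control array only, and so was Pfkfb3, with a difference of -1.10 there. On the 48 h high-dose array, 18 of the 38 members detected everywhere had their lowest level of the 5 arrays (47.4%) and 11 their highest (28.9%), against 34.9% and 40.9% of 13472 genes.

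After 3 h of the high dose, 1 member of 39 was lower at 2-fold (2.56%, against 1.45% of 14005 genes) and 0 were higher (against 1.85%), where 3.30% of genes were called in either direction. The median of the members was 0.03, beside -0.01 over all genes. The lower member was Pfkfb3, which encodes an enzyme that makes the allosteric activator of phosphofructokinase. It stood at -0.05, -0.55 and -1.23 on the 3 h arrays of control, low and high dose, and at -1.15 on the 48 h high-dose array against -0.45 on the 48 h control array. The high-dose arrays of both times were the lowest, and the difference was -1.18 at 3 h and -0.70 at 48 h. Against the 48 h control array the 3 h high-dose difference was -0.78, under 2-fold, and the second probe of the gene was below background on all arrays. The related enzyme gene Pfkfb4 differed by -0.17 at 3 h and 0.08 at 48 h. Slc16a3, which was far higher at 48 h, differed by -0.02 at 3 h, and Adm by 0.02.

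After 3 h of the low dose, 1 member of 39 was lower at 2-fold (2.56%, against 0.583% of 14062 genes) and 0 were higher (against 0.789%), where 1.37% of genes were called in either direction, with a median of -0.05 beside 0.02 over all genes. Pdk1 stood at -0.79, -2.10 and -1.21 on the 3 h arrays of control, low and high dose. The low-dose array was the lowest of the 5 and the high-dose array lay between it and the control. Its difference of -1.31 was -0.78 against the 48 h control array and therefore not past 2-fold against both. Under 2-fold, Pdk4, Slc2a3, Adm and Slc2a1 were 0.91, 0.68, 0.61 and 0.53 above the 3 h control at the low dose, but against the 48 h control array Pdk4, Adm and Slc2a1 differed by -0.016, -0.41 and -0.90. Between the doses at 3 h, the high dose gave 0 of 39 members higher than the low dose (against 1.27% of 14349 genes) and 0 lower (against 0.913%), with 2.18% of genes called in either direction. The largest difference between the doses was 0.89, for Pdk1. Low dose and high dose share the 3 h control array, so their differences from it are not independent.

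The control arrays themselves differed in 2 members, both higher at 48 h than at 3 h (5.13% of 39, against 2.50% of 14018 genes), and in 0 lower (against 1.36%), with 3.87% of genes called in either direction. Slc2a1, the main glucose transporter gene of most cells, stood at 2.42 on the 48 h control array against 0.99 on the 3 h control array (difference 1.43), with 1.52 and 1.06 on the 3 h low-dose and high-dose arrays and 1.88 on the 48 h high-dose array. Both 48 h arrays lay above all 3 h arrays. Adm stood at 1.83 on the 48 h control array against 0.81 on the 3 h control array, a difference of 1.02 that was 0.98 with normexp and 0.90 with arrays centred on their median. Of the 23 genes of glycolysis and transport, 17 were above 0 in this comparison, with a median of 0.24 beside 0.01 over all genes. Of the 13 measured HIF pathway genes and hypoxia targets, 6 were above 0, with a median of -0.03. Centring arrays on their median moved the median of all genes to -0.12 and that of the members to 0.0089, beside 0.13. Culture time, line and any other difference between the control cultures cannot be told apart.

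An effect of the high dose shared by both times was tested with limma on the 4 arrays without the low dose, with time as a covariate. This fit has 1 residual degree of freedom and treats an effect seen at a single time as error. No member of 39 passed an adjusted p of 0.05 (Benjamini-Hochberg over 14601 genes) in either direction, where the fit called 0.00% of all genes higher and 0.00% lower. At an unadjusted p under 0.05 there were 506 genes, among them 1 member, Pfkfb3, with a high-dose effect of -0.94 (standard error 0.32, limma p 0.0411, adjusted p 0.884, lower in 2 of 2 comparisons). In simulated data, where 200 of 14601 genes changed equally at both times, the fit recovered 64.1% of those changed 4-fold. On the arrays 3.30% of genes were past 2-fold at 3 h and 20.0% at 48 h, so the setting differs. The fit also missed Fos, whose high-dose difference was 4.40 at 3 h and 5.07 at 48 h. Recovery in these data may therefore be lower than in the simulation.

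Other genes of the same pathways were listed by function rather than by their values. The lists are selections, not full families, and were made with earlier results of these data known. Of 33 further hypoxia targets measured at 48 h, 7 were lower (21.2%, against 10.1% of all genes) and 1 was higher, with a median of -0.37. Against both control arrays only Angptl4, Stc1 and Stc2 were 2-fold lower (9.09%, against 7.09% of genes), while Gbe1, Car12, Ak4 and Cox4i2 differed by -0.55, -0.21, -0.75 and -0.86 from the 3 h control array. Angptl4, an inhibitor of lipoprotein lipase, stood at -3.57 on the 48 h high-dose array against 3.16 on the 48 h control array, and at 1.99, 1.40 and 0.56 on the 3 h arrays of control, low and high dose. Stc2, a stanniocalcin gene, and Gbe1, the glycogen branching enzyme gene, gave differences of -3.03 and -1.94. Against the 3 h control array the difference was -1.54 for Stc2 and -5.55 for Angptl4. Higd1a, a mitochondrial protein gene, was the higher one, at 3.90 on the 48 h high-dose array against 2.90 on the 48 h control array. Between the controls, 5 of 34 of these targets were higher at 48 h (14.7%, against 2.50% of all genes) and 0 were lower. They were Ndufa4l2, Stc2, Gbe1, Car12 and Angptl4, with differences of 2.05 for Ndufa4l2, 1.40 for Gbe1 and 1.19 for Car12. Stc2 stood at -0.78 on the 48 h control array against -2.28 on the 3 h control array. Gbe1 stood at 3.16 on the 48 h high-dose array, against 5.10 on the 48 h and 3.70 on the 3 h control array.

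Of 14 other glycolysis genes measured at 48 h, 1 was higher and 1 lower at 2-fold (14.3% in either direction, against 20.0% of all genes). Hkdc1, which encodes a hexokinase domain protein, stood at 3.21 on the 48 h high-dose array against 0.15 on the 48 h control array, and at -0.48, -1.25 and -0.49 on the 3 h arrays of control, low and high dose. The transporter gene Slc2a6 was lower, at 0.30 on the 48 h high-dose array against 1.89 on the 48 h control array, but it differed by -0.18 from the 3 h control array. Among 7 pentose phosphate genes, Tkt, the transketolase, stood at 8.15 on the 48 h high-dose array against 6.54 on the 48 h control array, and G6pdx, the entry enzyme, at 4.34 against 5.35. They were the 1 higher and the 1 lower gene of the list at 2-fold (14.3% each, against 9.94% and 10.1% of all genes). For G6pdx the direction turned with the control, since it differed by 0.13 from the 3 h control array. In the 48 h control, 2 of the 7 genes were higher than in the 3 h control (28.6%, against 2.50% of all genes). Tkt was past 2-fold against both controls. Of 11 genes of pyruvate entry into mitochondria, only the carboxylase gene Pcx passed 2-fold (9.09%, against 10.1% of all genes lower), at 1.05 on the 48 h high-dose array against 2.73 on the 48 h control array. Of 10 measured regulators of HIF, only Cited2, which encodes a competitor of HIF for its coactivator, passed it, at 1.55 on the 48 h high-dose array against 3.68 on the 48 h control array. That is 10% of the list, beside 10.1% of all genes lower.

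**Figure D4:**
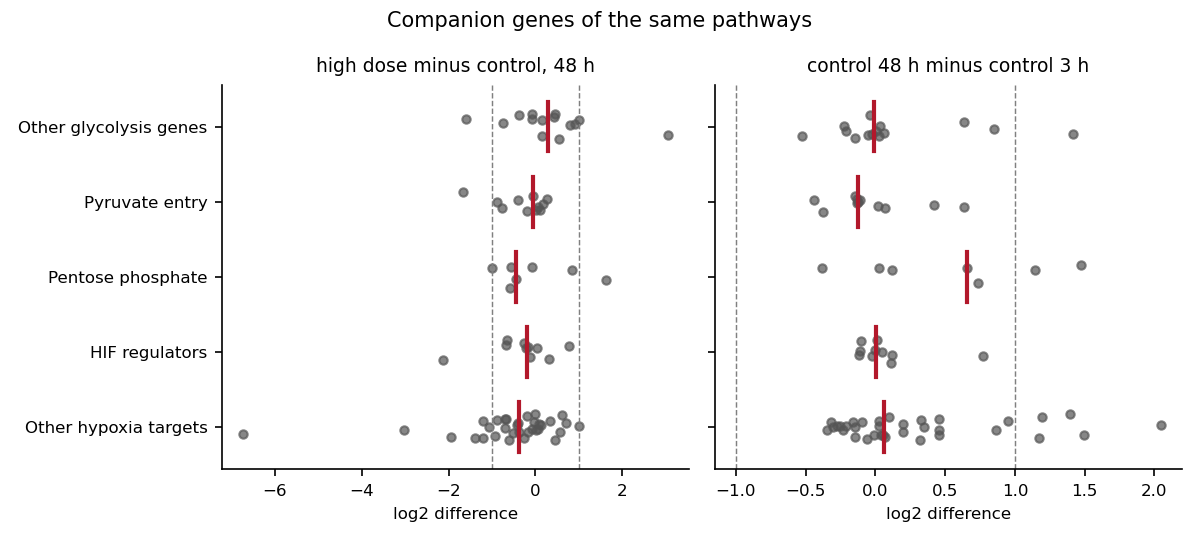
Log2 differences of the other genes of the same pathways, for the 48 h high-dose minus the 48 h control array (left) and the 48 h control minus the 3 h control array (right). Each point is a gene above background on both arrays, with a small vertical scatter for legibility, red bars are medians, dashed lines mark 2-fold, and the axes of the panels differ in range. The further hypoxia targets reach down to -6.72 on the left, with a median of -0.37.

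Probes of the same gene were a check on these values. Of 15 members with more than 1 probe, 13 had at least 2 above background on all arrays, and for 11 of these the 48 h differences of the probes lay within 0.5 of each other. Epas1 and Vegfa did not, with spreads of 4.02 and 0.89.

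**Figure D5:**
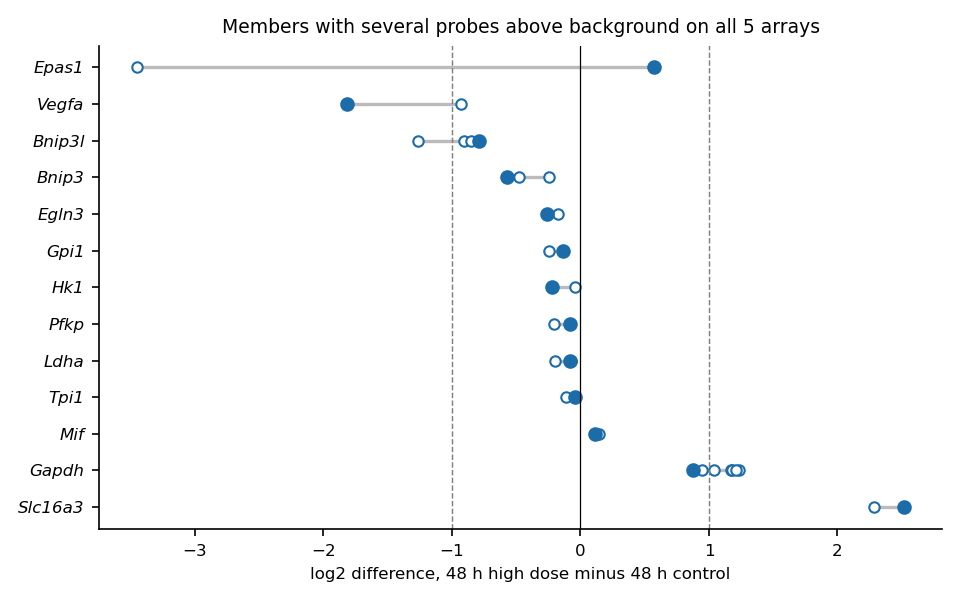
Log2 difference between the 48 h high-dose and 48 h control arrays for every probe of the 13 members with several probes above background on all 5 arrays. The filled point is the brightest probe, which stands for the gene, open points are its other probes, and dashed lines mark 2-fold. Epas1 alone has probes on opposite sides of 0, at -3.45 and 0.57.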

How the data were processed

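The members and gene lists were chosen with earlier results of these data known. Cy3-labelled total RNA was read by the authors with Agilent Feature Extraction 10.7.3.1, per the submitters' processing notes. The deposited intensity values are linear, background-subtracted and detrended within each array, per the file headers, without normalization across arrays. A value table, also deposited, held these intensity values within 0.001 on the log2 scale for 99.99% of values. Its direction is that of the signal, and its column medians were 38.6 (control), 32.7 (low dose) and 32.2 (high dose) at 3 h, and 24.1 (high dose) and 38.1 (control) at 48 h. All arrays share the header's design build mm9. Control spots and 111 to 146 outlier spots an array were left out, and no spot was saturated. From the deposited intensities, log2 signals were taken relative to the 75th percentile, which was 419.5 to 725.3 in signal units, and a probe's spots were averaged. The scanner's flag on a share of 0.5 or more of its spots made a probe count as above background. RefSeq accessions named 26413 of 55681 probes through the gene table of GRCm38.p6, 0 had several symbols and 29268 none. Of these named probes, the brightest per gene was used.

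Every member is accounted for, and all 5 values are given for those past 2-fold in any comparison. For a bound, the dim array's value was the weakest signal there that was above background, or the probe's own where higher. Such a bound is approximate, because some probes below background have a higher signal than the weakest one above it. For differences of the 253 probes spotted 10 times, the median SD over spots was 0.0862 to 0.0897. The test was limma 3.58.1 in R 4.3.3, with an intensity trend, over the genes that 2 or more of its 4 arrays detected. It was tested on simulated data of 14601 genes with 200 changed, where it recovered 64.1%, 84.3% and 90.9% at log2 changes of 2, 3 and 4, and made 15 false calls. Noise was drawn with the fit's own moderated variances and changes were equal at both times, so recovery in these data may be lower. The normexp alternative used median signals, because the files used here have no mean signal column.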

Additional observations from a re-analysis of the deposited data

How the results depend on the processing

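Of 113 counts and medians recomputed under another processing, 97 kept their value, within 1.5 times for a count and within the SD over spots for a median. A count could keep its value while the genes in it changed. The count of lower members at 48 h, 8, was 8 to 10 under the alternatives. Quantile normalization gave 10 (Ldhb and Hif1a added). The mean of all probes gave 9 (Epas1 added, whose probes disagree), as did no filter on dim probes (Pdk4 added). Against the 3 h control array Pfkfb3 stood in it in place of Eno2. The count of higher members at 48 h was 1, and 2 with arrays centred on their median and with the deposited value table (Pgk1 added), with the mean of all probes (Gapdh added) and against the 3 h control array (Hk2 added). The 48 h median was -0.54 with quantile normalization. At 3 h of the high dose, 1 member (Car9, below background) was higher without the filter on dim probes, as also between high and low dose, and 0 were lower with the mean of all probes, where Pfkfb3 is averaged with a probe below background. Centring on the median gave the 3 h high dose a median of -0.082, and the 48 h control as reference gave -0.24. With the 48 h control as reference, the 1 lower member at 3 h of the high dose was Slc2a1, with a difference of -1.36, in place of Pfkfb3. For the low dose, 0 members were lower with normexp and against the 48 h control, where the median was -0.17. Between the controls, 1 member (Slc2a1) was higher with normexp and with median centring, and the median was 0.0089 with median centring. The cause was not tested where none is named. Against the 3 h control array, a reference chosen for the other pathway genes after seeing the data, 3 of the 33 further hypoxia targets were lower and 2 higher at 48 h, 2 other glycolysis genes were higher and 0 lower, 2 pentose phosphate genes were higher and 0 lower, and 2 pyruvate entry genes were lower. The share of all genes for that reference alone is not given here, so these counts are not set against genes at large. Against both controls, 0 of the 33 further hypoxia targets were higher and 3 lower (9.09%), beside 7.41% and 7.09% of 13505 genes. The limma fit called 0 members under every alternative. Of 422 single-gene values, 381 lay within the scanner's error and 41 moved by more. None of the 89 for a difference past 2-fold changed sign, and 21 of the 333 for a smaller difference did, 11 of them with the other control array. Part of the 422 values could hardly move, so 381 overstates how far they were tested. Levels without the filter on dim probes are the main levels, and the mean of all probes is the same value for a gene with 1 probe. The deposited value table holds nearly the same intensities. Median centring moved the median of all genes at 3 h from -0.01 to -0.13 for the high dose, and from 0.01 to -0.12 between controls. Higher genes then made up 40.7% of the calls in place of 56.1% for the high dose, 46.8% in place of 57.5% for the low dose and 50.1% in place of 64.8% between controls. No paired analysis was possible because each group has 1 array and no replicate numbers, beyond the time term of the limma fit, which sets each high-dose array against the control of its own time. Pdk4 at 48 h of the high dose has only a bound, and Car9 has no difference at all, since its probe was below background on every array.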

Other observations

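Of the 4 Bnip3l probes, the third gave a difference of 1.54 between high dose and control at 3 h, where the others gave -0.04 to 0.12. It stood at 2.35 on the 3 h control array at 4.15 and 3.89 at the low and high dose of 3 h, and at 2.71 on the 48 h high-dose array against 3.97 on the 48 h control array. The brightest Bnip3l probe, which stands for the gene, differed by 0.01 at 3 h.

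Ndufa4l2, a hypoxia target that encodes a mitochondrial protein, stood at -3.73, -3.64 and -1.50 on the 3 h arrays of control, low and high dose, and at -1.25 on the 48 h high-dose array against -1.68 on the 48 h control array. The 3 arrays near -1.5 include a control, so its 3 h difference of 2.23 does not separate the high dose from the controls. Angptl4 was lower at both times of the high dose, by differences of -1.43 at 3 h and -6.72 at 48 h. Lox, which encodes a collagen crosslinking enzyme, was lower at 3 h of the high dose by a difference of -1.08. At 48 h it was about 6.91-fold lower or more, an approximate bound because its probe was not well above background there.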
